A study of Mus musculus with 24 samples.

Results

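Long intergenic noncoding RNAs (lincRNAs) with a measurable level in the mouse retina were described across 12 stages of its development. Members were genes that the deposited gene table types as lincRNA on chromosomes 1 to 19 and whose mean over both libraries of a stage reached 10 CPM (counts in each 1000000 of the library total) in any stage. Of 45594 genes in the table, 3729 were lincRNAs and 3062 of these lay on chromosomes 1 to 19. The level was reached by 185, and 179 members remained once the 6 of them among 10 better-known genes (Six3os1, Vax2os, Miat, Tug1, Rmst, Malat1, Neat1, Sox2ot, H19 and Meg3) were left out. A further 640 lincRNAs of those chromosomes had a highest stage mean of 1 to 10 CPM. Members were thus chosen by these levels, and peak levels and peak stages are given as a description, with no test.

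The samples were whole retinas of C57/Bl6N mice at embryonic days E11, E12, E14 and E16 and postnatal days P0, P2 and P4, P6 and P10, P14, P21 and P28, with 2 libraries at each stage. No genotype or treatment differed between groups. Directional libraries of polyadenylated RNA were prepared with 100 ng of input RNA for the 2 youngest stages and 1000 ng for all others, so that RNA input and age cannot be told apart in a comparison with E11. The labels do not say whether the libraries of a stage came from separate animals or pools, and p-values measure the spread between these libraries. Library totals ran from 24567532 to 35898879 estimated counts, at which 10 CPM stands for about 246 to 359 counts.

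LincRNAs are transcribed, spliced and often polyadenylated like messenger RNAs but carry no long reading frame. Some are the precursor transcripts of microRNAs, whose targets are chosen mainly by the seed at bases 2 to 8, and others are hosts of small nucleolar RNAs cut from their introns. Many start close to, or overlap, a protein-coding gene, and in the retina such neighbours include the homeobox genes that specify its progenitors and photoreceptors. For most members no function is known, and their symbols are placeholders.

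Mature microRNAs of the RefSeq table lay within 12 members on the same strand, with a part of the genome left out of the count. Mir124a-1hg and Mir124-2hg, not among these, are the hosts of miR-124. The sequences shown belong to hosts whose levels are described further on; RefSeq (GRCm38.p6) gives them 5′ to 3′, and capitals mark the seed. Mir17hg (chr14:115042879-115046727) holds a cluster in which miR-17-5p and miR-20a-5p share a seed, as do miR-19a-3p and miR-19b-3p. C130071C03Rik, AI854517 and Gm3764, on chromosomes 13, 7 and 3, each hold a copy of miR-9, which controls neural progenitors.
mmu-miR-17-5p: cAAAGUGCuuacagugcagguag
mmu-miR-20a-5p: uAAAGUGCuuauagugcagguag
mmu-miR-18a-5p: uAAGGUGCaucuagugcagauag
mmu-miR-19a-3p: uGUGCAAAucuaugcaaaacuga
mmu-miR-19b-3p: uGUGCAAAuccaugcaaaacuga
mmu-miR-92a-3p: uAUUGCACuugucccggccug
mmu-miR-9-5p: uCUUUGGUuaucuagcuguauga
mmu-miR-9-3p: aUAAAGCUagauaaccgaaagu

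Further hosts with a sequence shown are on chromosomes 1 (A430106G13Rik, miR-181b), 13 (6720427I07Rik, let-7d), 4 (E130102H24Rik, miR-101a), 12 (Mirg) and 7 (RP24-274B19.1, a miR-344 cluster). Gm37233 (miR-5103), 2900076A07Rik (miR-1839) and Snhg20 (miR-6516) make up the rest of the 12. The miR-410-3p of Mirg and the miR-344d-3p and miR-344e-3p of RP24-274B19.1 have the same seed.
mmu-miR-181b-5p: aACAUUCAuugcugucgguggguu
mmu-let-7d-5p: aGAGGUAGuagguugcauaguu
mmu-miR-101a-3p: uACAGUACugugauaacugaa
mmu-miR-410-3p: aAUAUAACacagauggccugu
mmu-miR-344d-3p: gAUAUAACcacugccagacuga
mmu-miR-344e-3p: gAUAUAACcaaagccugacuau

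The labelled tissue was checked with marker genes. Markers of Mueller glia (Rlbp1, Glul, Slc1a3 and Aqp4, 4 of 4 found), the glial cells of the retina, summed to 431 to 3027 CPM over the 24 libraries. At E11 the sum rested mainly on Glul: the means of Rlbp1, Glul, Slc1a3 and Aqp4 were 5.07, 446, 64.0 and 1.43 CPM. Lens crystallins and other lens genes (6 of 6 found) were uneven between the libraries of the 3 earliest stages: they summed to 3044, 2981 and 2249 CPM in E11 replicate 1, E12 replicate 2 and E14 replicate 2, and to 18.6, 220.4 and 59.4 CPM in the other library of each stage. Of the 179 members, 1 was at least 2-fold higher in the lens-rich library at all 3 stages. This was Gm26847, which had 6.09 and 0.591 CPM at E11, 4.76 and 27.5 CPM at E12 and 1.61 and 19.3 CPM at E14 in replicates 1 and 2, and lies across Mip, a lens channel gene. With those 3 libraries left out, a choice made after the data were seen, 181 lincRNAs met the rule and 29 peaked at E11 or E12, against 22 with all libraries.

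Most members were of low abundance. The highest stage mean had a median of 26.0 CPM and quartiles of 15.2 and 48.2 CPM, and 70 members stayed under 20 CPM. The lowest peaks inside the threshold were those of Gm42851 (10.05 CPM at P28), C030037D09Rik (10.16 CPM at E14) and Snhg18 (10.45 CPM at E11), and those just outside it were Gdap10 (9.97 CPM), Gm2061 (9.93 CPM) and Gm6410 (9.84 CPM). At the other end, 15 members reached 100 CPM and 3 reached 1000 CPM. All 12 stages were at 10 CPM or more in 46 members, and in 20 only 1 stage was. Per kilobase of exon (174 members, lengths from GENCODE M21), the median of the peak levels was 8.99 CPM per kb. The highest value, 3423 CPM per kb, was that of AY036118, whose label is taken up below. The next values, of Mir124a-1hg, Gm29562, Mir124-2hg, Gm43549, Platr17 and Gm26735, were 649.7, 355, 213, 193, 178 and 153 CPM per kb.

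By peak stage, 11 members peaked at E11, 11 at E12, 5 at E14, 13 at E16, 18 at P0, 8 at P2, 9 at P4, 5 at P6, 17 at P10, 11 at P14, 23 at P21 and 48 at P28. Peaks at P21 or P28 made up 39.7% of members, against 38.9% of the 640 less abundant lincRNAs and 16.5% of 12046 protein-coding genes past the same level. Peaks from E11 to E16 made up 22.3% of members, 19.2% of the less abundant lincRNAs and 39.8% of the protein-coding genes. The members' profiles were narrower than those of protein-coding genes: the median number of stages at 50% of the peak or more was 6 in members and 8 in protein-coding genes, and the index tau, which is 0 for an even profile and 1 for expression in a single stage, had medians of 0.53 and 0.42. In the less abundant lincRNAs these medians were 6 stages and 0.53. The sets were not matched for level: the median peak was 26.0 CPM in members, 66.7 CPM in protein-coding genes and 2.47 CPM in less abundant lincRNAs. In 107 members both peak libraries lay above all 22 others, and in 122 the replicate 1 libraries and the replicate 2 libraries, taken alone, gave the same peak stage. The replicate sets put the peak at the same or a neighbouring stage in 150. The heat map of percentages of the peak shows the order. The lowest stage was at a median of 22.8% of the peak among P28 members and of 4.4% among P21 members. Among E16 and P0 members, with broader profiles, it was at 29.9% and 31.7%.

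**Figure D1:**
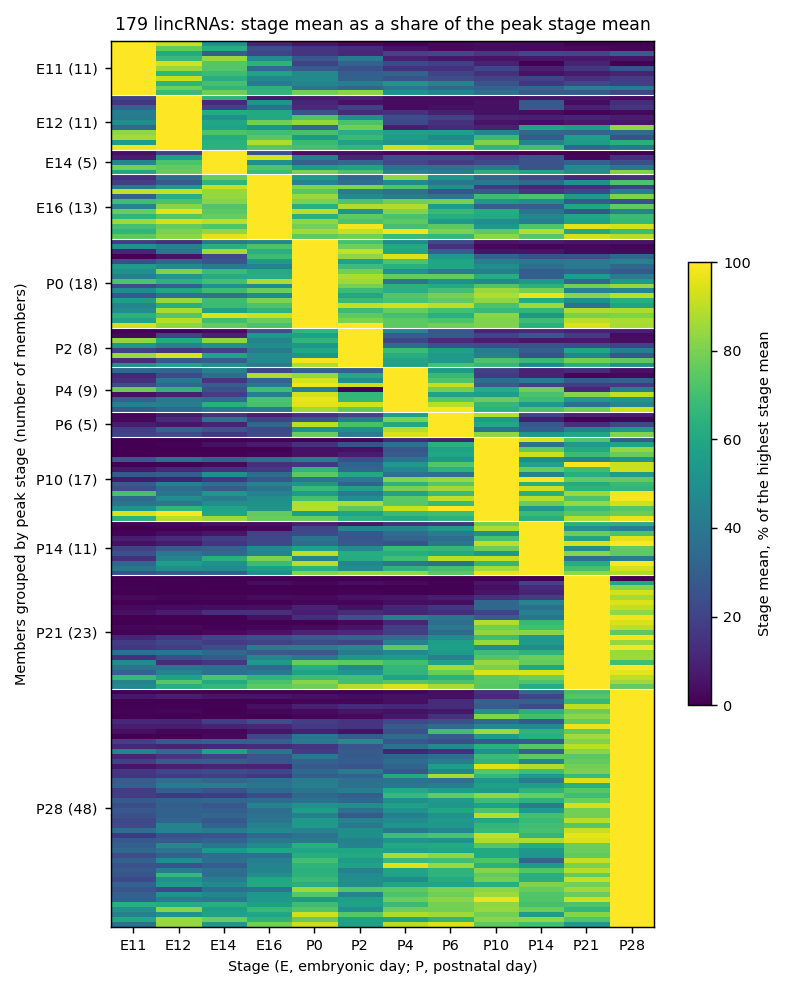
Heat map of the 179 lincRNAs (one line each, grouped by peak stage from top to bottom) over the 12 stages (left to right), coloured by the stage mean of 2 libraries as a percentage of that gene's highest stage mean. The largest blocks are P28 with 48 members and P21 with 23, and the lowest stage of P21 members is at a median of 4.4% of the peak.

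**Figure D2:**
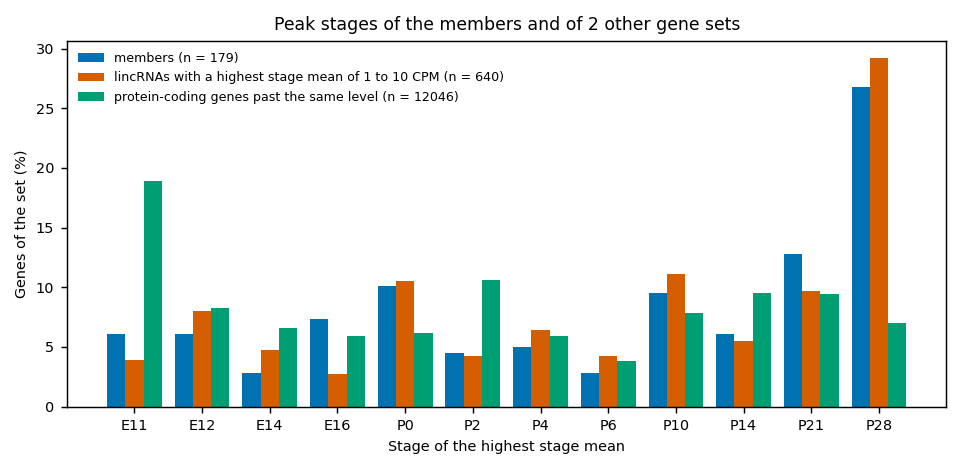
Percentage of genes (vertical axis) whose highest stage mean falls at each stage (horizontal axis) for the 179 members, the 640 less abundant lincRNAs and 12046 protein-coding genes past the same level. At P28 the bars stand at 26.8%, 29.2% and 7.0%, and at E11 at 6.1%, 3.9% and 18.9%.

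The members together held between 0.362% (E11 replicate 2) and 0.935% (P10 replicate 2) of all counts. A large and changing share of this came from the 2 hosts of miR-124, a microRNA of postmitotic neurons. They held 44.5% and 48.2% of member counts at P10, against 2.4% and 1.1% at E11. Another large part came from AY036118, Gm42418 and Gm26917, whose labels are taken up below. At E12 these summed to 2675 and 3756 CPM, beside 4443 and 3918 CPM for all other members. Mir124a-1hg (chr14:64587331-64593961, forward strand) had 12.9 and 0.334 CPM at E11, 266 and 217 CPM at E16, 2171 and 1799 CPM at P6 and 2919 and 3324 CPM at P10. The libraries of these stages did not overlap, and at E11 the library with more lens RNA was the higher one. At E12 and E14, Mir124a-1hg was lower in the lens-rich library (ratios of 0.87 and 0.95 to the other library, with 0.5 CPM added). Its level was higher at E16 than at E11 (log2 change 5.08 ± 0.68 SE, edgeR adjusted p = 9.55e-06) and at P6 than at E16 (3.02 ± 0.60, adjusted p = 0.000488), and the P28 libraries (1875 and 1764 CPM) overlapped those of P6 (log2 change −0.03 ± 0.56, adjusted p = 0.972). Transcript Mir124a-1hg-001 held at least 99.4% of its counts in every library.

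Mir124-2hg (chr3:17789921-17808970) had a narrower range. It had 74.1 and 38.2 CPM at E11, 272 and 271 CPM at E16, 511 and 505 CPM at P6 and 1354 and 1204 CPM at P28. The change was 2.14 ± 0.22 for E16 over E11 (adjusted p = 3.7e-07) and 1.43 ± 0.21 for P28 over P6 (adjusted p = 2.82e-05). For P6 over E16 it was 0.88 ± 0.21, under 2-fold (adjusted p = 0.00215). Its mean was highest at P14, with 1199 and 1363 CPM, a range that the P28 libraries fell within.

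Of the 3 miR-9 hosts, C130071C03Rik and AI854517 were called higher at E16 than at E11, and Gm3764 at P6 than at E16. C130071C03Rik (chr13:83721381-83884194) had 186 and 192 CPM at E16, against 3.54 and 0.596 CPM at E11 (log2 change 6.38 ± 0.39, adjusted p = 5.8e-10), had its highest mean at P0 with 262 and 290 CPM (the P4 libraries, 274 and 250 CPM, overlapped these) and had 90.6 and 90.9 CPM at P28. AI854517 (chr7:79500026-79534403) had 7.31 and 6.11 CPM at E16, against 0.159 and 0.192 CPM at E11 (5.13 ± 0.30, adjusted p = 2.59e-10), and peaked at P2 with 29.4 and 25.7 CPM. It fell to 3.01 and 1.74 CPM at P28, against 6.47 and 7.97 CPM at P6 (−1.50 ± 0.21, adjusted p = 1.7e-05). Gm3764 (chr3:88206813-88229959) had 23.1 and 17.1 CPM at P6, against 1.12 and 0.425 CPM at E16 (4.67 ± 0.29, adjusted p = 7.86e-10), and peaked at P14 with 36.3 and 37.8 CPM. The highest means of the 3 hosts of the same mature sequence fell at P0, P2 and P14, but in the replicate 1 libraries alone that of C130071C03Rik fell at P4. These libraries measure polyadenylated host RNA, not mature microRNAs.

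Mir17hg, host of the miR-17 cluster that promotes proliferation, went the other way. Its level was lowest at P14, with 4.36 and 4.82 CPM, and highest at E11, with 81.7 and 101 CPM. It fell to 19.6 and 18.2 CPM at P6, against 44.2 and 61.6 CPM at E16 (log2 change −1.52 ± 0.17, adjusted p = 1.35e-06). In the other pairs of stages its change was under 2-fold, −0.94 ± 0.17 for E16 over E11 and −0.99 ± 0.18 for P28 over P6. The means of Ccnd1 and Mki67, genes of dividing cells, were 233 and 91.7 CPM at P6 and 2769 and 1049 CPM at E16, and the part of cell numbers in the change of Mir17hg was not tested. In bulk retina, fewer cells of a type and less RNA per cell cannot be told apart for this or any other member.

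The other hosts described here had highest stage means of 10.5 to 35.0 CPM. A430106G13Rik, the host of miR-181b, was called higher at E16 than at E11 and again at P6 than at E16, and fell to 6.15 and 6.22 CPM at P28, against 31.1 and 25.6 CPM at P6 (log2 change −2.10 ± 0.25, adjusted p = 2.22e-06). RP24-274B19.1, the miR-344 host, had 34.7 and 35.3 CPM at P28, against a mean of 12.5 ± 0.57 CPM at P6 (SD, n = 2; 1.58 ± 0.19, adjusted p = 2.29e-06). E130102H24Rik, with miR-101a, had 4.79 and 4.05 CPM at E16, against 2.27 and 1.15 CPM at E11 (1.23 ± 0.23, adjusted p = 0.000322). The let-7d host 6720427I07Rik stayed between 5.62 and 20.5 CPM in every library and was called in none of the 3 pairs of stages. Mirg, at the imprinted Dlk1 locus, had stage means of up to 11.0 CPM and was also called in none, and its E11 libraries were apart at 2.33 and 8.26 CPM. In the list of imprinted noncoding genes, 8 were tested and Mirg is the 1 member. In each pair of stages 1 of the 8 was called higher, beside 13.57%, 13.21% and 14.23% of all genes tested. At P28 over P6, 1 was called lower, beside 10.49%. A separate list of 13 microRNA host genes was set by symbol, not by position. It leaves out hosts found by position alone, such as the miR-9 hosts, A430106G13Rik and RP24-274B19.1. Its counts therefore do not cover all hosts described here. Of this list 10 genes were tested and 4 are members. At E16, 2 were called higher and 2 lower than at E11, beside 13.57% and 9.11% of all genes tested. At P6 over E16, 2 were higher and 1 lower, beside 13.21% and 11.73%, and at P28 over P6, 1 was higher, beside 14.23%.

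**Figure D3:**
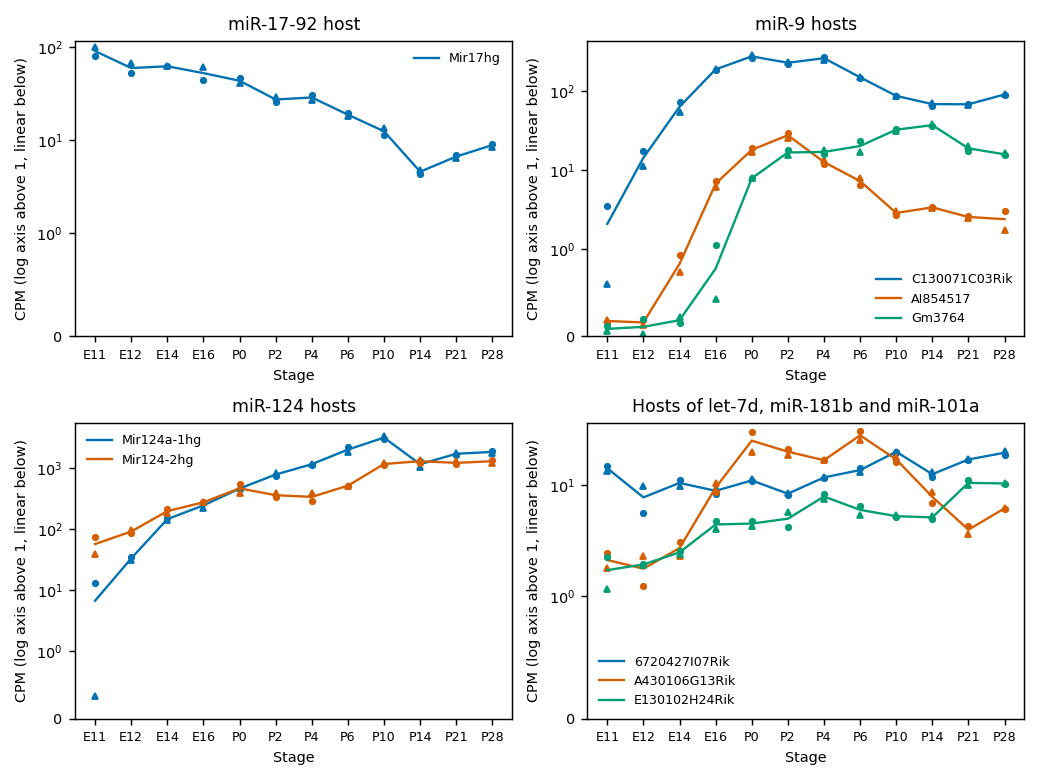
Levels of microRNA host members in CPM (vertical axis, logarithmic above 1 and linear below) at the 12 stages. Circles are replicate 1, triangles replicate 2 and lines their mean. Mir17hg declines through P14, the miR-9 hosts have their highest means at P0, P2 and P14, and the miR-124 hosts climb to over 1000 CPM.

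To set the members against each other on 1 scale, E16 was compared with E11, P6 with E16 and P28 with P6 with the quasi-likelihood F test of edgeR over 21858 genes that passed a filter on low counts, the 179 members among them. Calls needed a Benjamini-Hochberg adjusted p below 0.05 together with a 2-fold change or more. At E16, 46 members were higher than at E11, 25.7% of members beside 13.57% of all genes tested, and 8 were lower, 4.47% beside 9.11%. At P6, 44 were higher than at E16 (24.6%, beside 13.21% of all genes) and 26 lower (14.5%, beside 11.73%). At P28, 45 were higher than at P6 (25.1%, beside 14.23%) and 23 lower (12.8%, beside 10.49%). Across all 12 stages, 165 members (92.2%, beside 77.28% of all genes) differed. A member that passed the level at 1 of the stages compared and not at the other had to differ, so nothing is read from these shares. The median log2 changes were 0.43, 0.25 and 0.43 for members and 0.00, 0.01 and 0.04 for all genes tested. The 108 members with a mean of at least 10 CPM over all 24 libraries had 26 calls higher and 3 lower at E16, 26 and 14 at P6, and 24 and 12 at P28. Of 10665 protein-coding genes with such a mean, 1521 were called higher and 721 lower at E16, 1173 and 1392 at P6, and 925 and 1184 at P28.

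**Figure D4:**
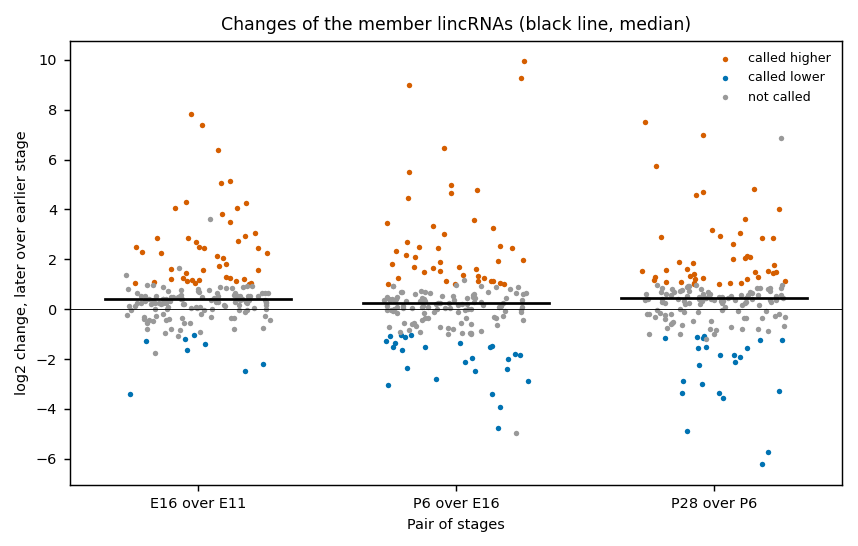
Log2 change of each of the 179 lincRNAs (points) for E16 over E11, P6 over E16 and P28 over P6, with called genes in colour and the median as a black line. Medians stand at 0.43, 0.25 and 0.43, and the points above 7 belong to genes with 0 to 4 counts in the 2 libraries of the earlier stage.

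Between E11 and E16 the calls with the largest increases were of genes close to absent at E11. BC046251 (chr7:65582070-65618884) had 7.88 and 4.99 CPM at E16, against 2 counts in all at E11, a ratio of 209 (counting interval 57.9 to 1730), and it went on to 28.01 and 31.04 CPM at P28. BC055402 (chr1:57200645-57214993) had 1.22 and 0.648 CPM at E16 and no count at E11, and was at least 20.2-fold higher against a floor of 3 counts over both libraries. Its main increase came later, with 19.7 and 13.1 CPM at P28, against 0.391 and 0.256 CPM at P6 (log2 change 5.74 ± 0.45, adjusted p = 3.99e-08). Gm44196 was called at E16 on 0.0295 and 0.136 CPM, against no count at E11 (adjusted p = 0.0268). That call was lost without E11 replicate 1, E11 replicate 2 or E16 replicate 2 (adjusted p = 0.106, 0.118 and 0.265) and with DESeq2 (adjusted p = 0.0538).

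The differences downward were smaller. C130026L21Rik (chr5:111581422-111604932) had 1.06 and 1.13 CPM at E16, against 11.14 and 10.03 CPM at E11, and RP24-549B12.4 had 3.17 and 2.76 CPM at E16, against 11.3 and 17.9 CPM at E11. These genes and Dancr are members through E11 alone, so that their difference from E16 is given with no test. AU020206 (chr7:75769038-75782099) had 21.12 and 17.1 CPM at E16, against 68.4 and 90.1 CPM at E11 (−2.21 ± 0.19, adjusted p = 5.46e-08), and fell again to 1.73 and 1.90 CPM at P6 (−3.41 ± 0.22, adjusted p = 1.44e-09). 2700038G22Rik and 2810429I04Rik were also called lower at E16, with log2 changes of −1.66 and −1.26. Red cell genes (6 of 6 found) summed to 250 and 380 CPM at E16 and to 2987 and 6716 CPM at E11, and mesenchyme genes (6 of 6) to 10.8 and 8.82 CPM at E16 and to 172 and 92.3 CPM at E11. The part of such cells in these falls was not tested.

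Dancr, a snoRNA host known as a suppressor of differentiation in other tissues, had 6.02 and 5.63 CPM at E16 and 13.2 and 14.9 CPM at E11. Among snoRNA hosts as a list (17 tested, 5 of them members), 7 were called lower and 1 higher at E16 than at E11, beside 9.11% and 13.57% of all genes tested, with a median log2 change of −0.79 beside 0.00 for all genes. Dancr, a member through E11 alone, is among the 7, so nothing is read from that count. The other member hosts Snhg18, Snhg6 and Snhg12 had changes of −0.79, −0.56 and −0.45, under 2-fold, and Snhg20 one of −0.35 (adjusted p = 0.212). The highest mean of Snhg18, 10.45 CPM, was that of E11, so its change is a description only. At P28 over P6, 5 of the 17 were lower and 1 higher, beside 10.49% and 14.23% of all genes tested. Snhg6 (6.70 and 7.97 CPM at P28, 15.3 and 17.4 CPM at P6) and Dancr (2.32 and 2.95 CPM at P28, 5.99 and 6.69 CPM at P6) were among them. Their log2 changes, −1.06 and −1.17, came under 2-fold without P28 replicate 1 (−0.93 and −0.9991), and that of Snhg6 also without P6 replicate 2 (−0.97). Snhg20 rose at P6 over E16 (1.36 ± 0.22, adjusted p = 6.61e-05).

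Dubr was highest at E16, with 42.1 and 40.5 CPM, against 8.66 and 6.52 CPM at E11 (log2 change 2.30 ± 0.16, adjusted p = 2.62e-09). It then fell to 15.9 and 16.5 CPM at P6 (−1.38 ± 0.15 over E16, adjusted p = 9.02e-07). D930028M14Rik (chr7:25152457-25156627), inside the bounds of the transcription factor gene Pou2f2, was highest at E14: it had 18.2 and 13.6 CPM at E12, 78.9 and 79.2 CPM at E14 and 18.6 and 21.8 CPM at E16. It had 0.783 and 0.744 CPM at P6 (−4.75 ± 0.66 over E16, adjusted p = 1.36e-05). Gm20649 (chr9:74848463-74891476), on the same strand as Onecut1 and sharing 2171 exonic bases with it, also peaked at E14 with 27.8 and 21.8 CPM, and the E16 libraries (23.8 and 23.0 CPM) lay within that range.

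Several members were high in the newborn retina. Lockd (chr6:134929092-134956798) lies downstream of the cell-cycle inhibitor gene Cdkn1b, for which it is named. Lockd had 130 and 135 CPM at P0 and 97.2 and 93.3 CPM at E16. By P6 it had fallen to 17.3 and 19.96 CPM (log2 change −2.38 ± 0.17 over E16, adjusted p = 4.48e-09), and by P28 to 2.30 and 2.49 CPM (−2.87 ± 0.20 over P6, adjusted p = 3.33e-09). Cdkn1b itself had 151 and 156 CPM at E16, 127 and 146 CPM at P6 and 113 and 116 CPM at P28. Crnde (chr8:92326038-92356120), whose start lies 1676 bases from that of Irx5, peaked at P0 with 22.1 and 21.5 CPM. It was called higher at E16 than at E11 (1.21 ± 0.21) and lower at P6 than at E16 (−1.08 ± 0.21). The first change was under 2-fold without E11 replicate 1 (0.97), and the second without E16 replicate 1 (−0.94) or P6 replicate 1 (−0.86). Raxos1, antisense to the eye-field gene Rax, had 13.7 and 12.98 CPM at E16, against 4.17 and 3.16 CPM at E11 (1.72 ± 0.18, adjusted p = 4.61e-07), and was highest at P2 with 28.3 and 28.5 CPM, with P0 libraries on both sides at 34.1 and 21.3 CPM.

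Other members fell between P6 and P28. C230057A21Rik (chr3:8732870-8736360) had 0.32 and 0.204 CPM at P28, against 14.07 and 14.74 CPM at P6 (log2 change −5.73 ± 0.65, adjusted p = 1.66e-06). F730016J06Rik (chr2:28095477-28127731) had 1.10 and 1.41 CPM at P28, against 17.3 and 14.6 CPM at P6 (−3.57 ± 0.43, adjusted p = 2.71e-06). Gpr137b-ps, a pseudogene by name, fell to 5.37 and 5.33 CPM at P28, against 29.9 and 24.7 CPM at P6 (−2.26 ± 0.20, adjusted p = 1.1e-07). Gm26953, which peaked at P0 with 48.3 and 48.2 CPM, and Gm26822 were lower at P28 than at P6 by 3.36 and 3.35 on the log2 scale, and the P4 libraries of Gm26822 were far apart at 40.9 and 17.6 CPM. Gm26751, which was highest at E11 with 32.7 and 41.9 CPM, had 0.171 and close to 0 CPM at P28, against 6.40 and 7.601 CPM at P6, but 3.73 and 3.33 CPM at P21. It shares 4245 exonic bases with Nynrin on the other strand.

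Of the members that rose between E16 and P6, several were at or near 0 before birth. A930006I01Rik (chr2:103338601-103372764) had no count in any library from E11 to E16, 2.74 and 2.43 CPM at P6, 23.3 and 22.2 CPM at P14 and 66.2 and 71.7 CPM at P28. Its level at P6 was at least 55.7-fold higher than at E16 against the 3-count floor, and it was higher again at P28 than at P6 (log2 change 4.83 ± 0.20, adjusted p = 5.8e-10). Gm7546 and Gm11342, which had no count at E16, were at least 89.7-fold and 46.7-fold higher at P6, with 4.76 and 3.56 CPM and 2.15 and 2.18 CPM. RP24-240G4.4 was higher by a ratio of 53.0 (counting interval 14.7 to 437, on 2 counts at E16).

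Platr17 (chr17:33905135-33906675) had a wide range with libraries that agreed closely. It had 85.6 and 84.9 CPM at P6, against 2.79 and 2.49 CPM at E16 (log2 change 4.98 ± 0.15, adjusted p = 1.1e-13), and 131 and 156 CPM at its P10 peak. GENCODE M21 types it as protein-coding, and RefSeq places the coding gene Smim40 over it. Otx2os1 (chr14:48669288-48793348), which starts 1644 bases from the photoreceptor and bipolar gene Otx2 on the opposite strand, had 11.9 and 11.8 CPM at P6, against 1.06 and 0.857 CPM at E16 (3.59 ± 0.20, adjusted p = 2.39e-10). Otx2os1 had 17.3 and 16.6 CPM at P28. Otx2 had 275 and 261 CPM at E16, 1073 and 1062 CPM at P6 and 229 and 208 CPM at P28, so that the 2 genes ran apart after P6. Tunar, which acts in neural differentiation of mouse stem cells, had 6.09 and 4.78 CPM at E16, against 0.164 and 0.43 CPM at E11 (4.05 ± 0.34, adjusted p = 3.93e-08), and peaked at P14 with 26.1 and 27.1 CPM. Its call at P6 over E16 (1.02 ± 0.25) was under 2-fold without E16 replicate 2 (0.87) or P6 replicate 2 (1.00). Fam120aos rose at P6 over E16 (1.68 ± 0.16, adjusted p = 1.19e-07), whereas the other named antisense genes Cep83os and Ino80dos had changes of 0.57 and 0.53.

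The mature retina held the largest group. Gm28875 (chr12:104925501-104926142) had 13.1 and 10.6 CPM at P28, against 0.0328 and 0.0959 CPM at P6 (log2 change 7.53 ± 0.59, adjusted p = 2.07e-08). 2810030D12Rik (chr8:13200720-13207714) had 17.7 and 18.1 CPM at P28, against 0.16 and 0.132 CPM at P6 (6.997 ± 0.50, adjusted p = 6.44e-09). Both were low at P14, with 1.28 and 1.31 CPM and 2.91 and 2.51 CPM, and near their maximum at P21, with 12.3 and 13.1 CPM and 22.61 and 21.13 CPM. 6430562O15Rik (35.99 and 45.65 CPM at P28, 2.01 and 1.297 CPM at P6) and Gm14268 (23.7 and 26.9 CPM at P28, 0.956 and 1.31 CPM at P6) were higher at P28 by 4.72 and 4.58 on the log2 scale. F630040K05Rik had 73.9 and 52.3 CPM at P28 and 6.72 and 4.38 CPM at P6 (3.602 ± 0.23, adjusted p = 1.3e-09). The means of Sag and Gnat1, photoreceptor genes, were 4906 and 6013 CPM at P28 and 1853 and 34.4 CPM at P6. Not every gene of that list rose: Crx, Otx2 and Nr2e3 had means of 1024, 219 and 482 CPM at P28 and 1427, 1068 and 945 CPM at P6. Bipolar cell genes (5 of 5 found) summed to 795 and 735 CPM at P28 and to 175 and 109.9 CPM at P6, and Mueller glia genes to 2445 and 2053 CPM at P28 and to 822 and 859 CPM at P6. Of the Mueller glia genes, Glul and Aqp4 rose from means of 257 and 1.38 CPM at P6 to 1721 and 106 CPM at P28. Rlbp1 and Slc1a3 fell from means of 290 and 291 CPM at P6 to 244 and 178 CPM at P28. The part of such cells in the rises of these lincRNAs was not tested.

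The late members named next had log2 changes of 1.19 or less between P6 and P28. Gm26905 (chr8:58171435-58298866) had 741 and 752 CPM at P28, against 423 and 373 CPM at P6 (log2 change 1.00 ± 0.16, adjusted p = 5.66e-05). 1700020I14Rik (chr2:119594297-119607502), which RefSeq names Oip5os1, stayed between 294 and 874 CPM in all 24 libraries and was called in none of the 3 pairs of stages. 4632415L05Rik had 81.5 and 82.8 CPM at P28, against 38.0 and 38.8 CPM at P6 (1.19 ± 0.09, adjusted p = 6.74e-09). Smim20 was called higher at P28 than at P6 (1.07 ± 0.21), but not when libraries were scaled by their totals alone (0.98) or without P6 replicate 1 (0.89).

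For some members the table's label or level needs a second look. AY036118 (chr17:39847113-39848035), Gm42418 and Gm26917 lie at one place on chromosome 17, where the first 2 overlap Rn18s-rs5, which RefSeq types as a pseudogene of 18S ribosomal RNA. Their summed level was 2675 and 3756 CPM at E12, 1593 and 1712 CPM at E16, 83.6 and 144.6 CPM at P6 and 1003 and 802 CPM at P14, so it followed no order of age. Called changes of AY036118, 1.56 for E16 over E11, −3.91 for P6 over E16 and 2.01 for P28 over P6, are among the counts above. Gm26825 (chr5:5781530-5783636) had 129 and 239 CPM at P21 and at most 1.52 CPM in any other library, and a RefSeq pseudogene, Gm15459, covers the same stretch to within a few bases. In GENCODE M21, 174 of the 179 members are present at the same place, 150 still as lincRNA, 6 as protein-coding (6330403K07Rik, Platr25, Platr17, Gm9918, Tunar and Gm2115), 5 each as antisense, processed transcript and bidirectional promoter lncRNA, 2 as pseudogenes and 1 as sense intronic. RefSeq places coding genes over Gm37494 (Gm33989) and Gm29562 (Gm10634). Gm37494, Gm29562 and Gm43549 had stage means of 212, 321 and 513 CPM at their peaks, but their 2 libraries lay far apart at these (184 and 240, 385 and 256, and 625 and 401 CPM).

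Genome position was read from the table's own coordinates, on the mouse build GRCm38. The nearest protein-coding gene overlapped 44 members (24.6%), on the opposite strand in 34, and lay within 10 kb of 107 (59.8%). Among 11555 protein-coding genes past the same level on these chromosomes, 23.3% overlapped another and 70.6% had one within 10 kb, and of the less abundant lincRNAs 27.5% overlapped one and 59.2% had one within 10 kb. Opposite-strand starts within 1 kb of each other were found for 21 members (11.7%), against 20.3% of the less abundant lincRNAs and 1409 of 11555 protein-coding genes.

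For 91 members the neighbour within 10 kb was itself past 10 CPM. Over the 12 stage means, the correlation r of log2 levels between such a member and its neighbour had a median of 0.46. The median was 0.33 over 330 such pairs of the less abundant lincRNAs and 0.25 over 5887 protein-coding neighbour pairs. Over the 46 members whose nearest such gene lay farther off, it was 0.09. The values of a pair come from the same libraries and follow age together. Both genes peaked at the same stage in 19 of the 91 pairs (20.9%). This held for 19.4% of the pairs of less abundant lincRNAs and 16.9% of the protein-coding pairs. In GENCODE M21, 25 of the 91 share exonic bases with the neighbour, and their median r was 0.76. In the 66 that share none it was 0.39, and 27 of these were below 0. No source used here states whether the authors counted by strand, so that reads of overlapping pairs may not be told apart.

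The 6 pairs with the most abundant members differed widely. Gm26735 (chr13:28943048-28951671) overlaps Sox4, a gene of newborn retinal neurons, on the opposite strand and shares 2616 exonic bases with it (r = 0.98). Gm26735 had 46.0 and 42.8 CPM at E11, 354 and 363 CPM at E16, 262 and 283 CPM at P6 and 8.60 and 8.62 CPM at P28. Sox4 had 35.6 and 37.7 CPM at E11, 242 and 249 CPM at E16, 177 and 213 CPM at P6 and 9.34 and 10.7 CPM at P28. The change of Gm26735 was −4.89 ± 0.12 for P28 over P6 (adjusted p = 1.05e-14). Gm17275 shares 638 exonic bases with the histone gene H3f3a (r = 0.79). 1700020I14Rik and Oip5, 2010 bases apart, moved in opposite directions (r = −0.87): Oip5 had 0.472 and 0.526 CPM at P28 and 22.6 and 26.5 CPM at E11. The r of Gm26905 and Galntl6 was 0.55, that of Platr17 and Daxx −0.26 and that of Gm37494 and Zfp619 −0.12.

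**Figure D5:**
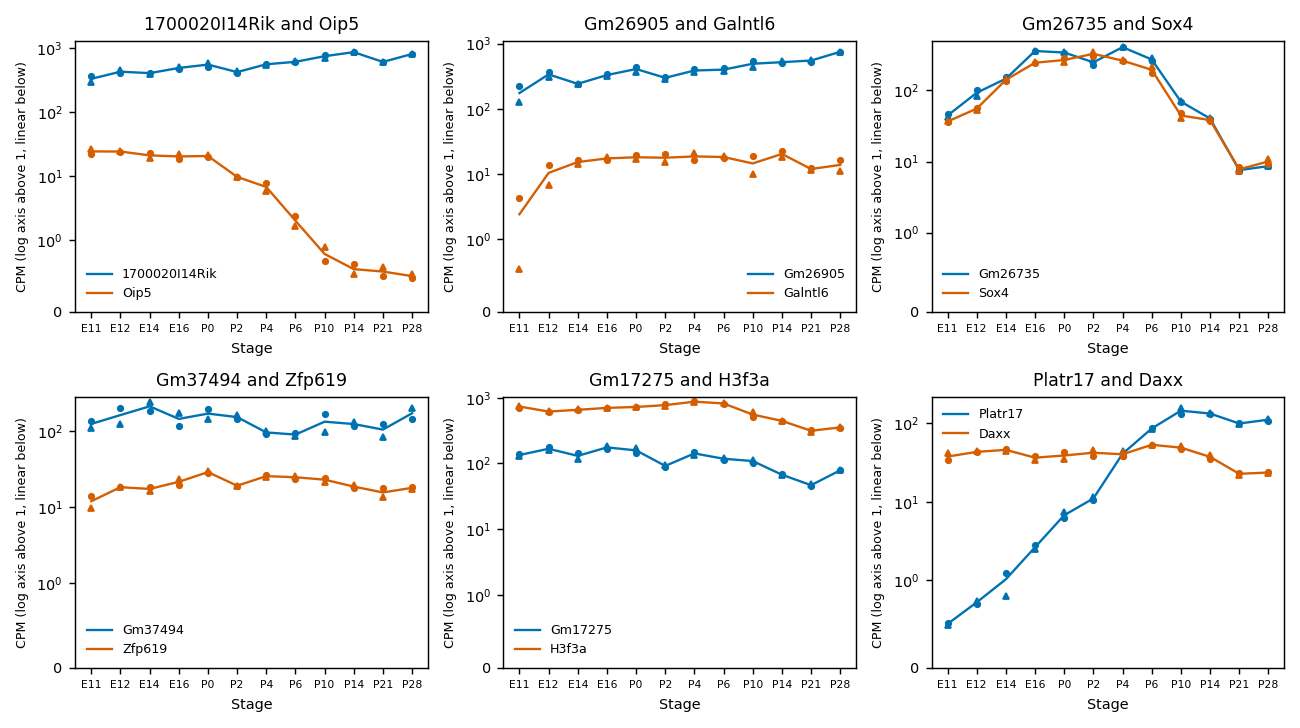
Levels in CPM (vertical axis, logarithmic above 1 and linear below) at the 12 stages for the 6 most abundant members that have a protein-coding gene within 10 kb, with that gene. Circles are replicate 1, triangles replicate 2 and lines their mean; Gm26735 and Sox4 run together, whereas Oip5 declines and 1700020I14Rik does not. CPM are not corrected for length, so only the shapes can be set against each other.

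Other pairs above r = 0.9, chosen after their values were seen, were of 2 kinds. Gm26669 and Zfp36l1 (r = 0.94) share 1672 exonic bases, and Gm26669 had 8.97 and 11.8 CPM at P6, against 74.4 and 69.3 CPM at E16 (log2 change −2.81 ± 0.24, adjusted p = 3.14e-08). Gm14230 and Tgif2 (r = 0.97), which start 115 bases apart on opposite strands, and 2810030D12Rik and Grtp1 (r = 0.97), 96 bases apart, share no exonic bases. Gm14230 had 1.04 and 0.796 CPM at P6, against 7.49 and 6.03 CPM at E16 (−2.89 ± 0.31, adjusted p = 6.78e-07). A830039N20Rik lies inside Kcnma1, a potassium channel gene, on its strand (r = 0.98), and had 52.0 and 55.8 CPM at P28, against 27.5 and 22.3 CPM at P6 (1.21 ± 0.18, adjusted p = 3.32e-05). Gm28875 lies 3807 bases from Syne3 on the same strand (r = 0.98).

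RefSeq promoters (250 bases before to 50 after the start, GRCm38.p6) were matched for 81 members by symbol. They were searched on both strands for TAATCC, which reads GGATTA on the opposite strand and is the core motif of the photoreceptor factors CRX and OTX2. It occurred in 9 of 81, in 3 of 32 members with a peak at P21 or P28 (9.4%) and in 3 of 11 with a peak at P10 or P14 (27.3%), against 7.1% of all 32851 promoters in that table. These 2 shares by peak stage rest on 3 promoters each, so nothing is read from them. The promoters of BC046251 and BC055402, the matched genes with the largest increases at E16, are shown with that motif in capitals: BC046251 holds it once (chr7:65581781-65582080, forward strand) and BC055402 (chr1:57214947-57215246, reverse strand) has no match.
BC046251: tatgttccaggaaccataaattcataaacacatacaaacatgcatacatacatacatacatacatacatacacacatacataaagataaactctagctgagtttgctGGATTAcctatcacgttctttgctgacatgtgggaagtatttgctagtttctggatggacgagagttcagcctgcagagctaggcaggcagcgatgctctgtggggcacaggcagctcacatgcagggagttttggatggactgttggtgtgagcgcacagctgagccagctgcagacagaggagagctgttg
BC055402: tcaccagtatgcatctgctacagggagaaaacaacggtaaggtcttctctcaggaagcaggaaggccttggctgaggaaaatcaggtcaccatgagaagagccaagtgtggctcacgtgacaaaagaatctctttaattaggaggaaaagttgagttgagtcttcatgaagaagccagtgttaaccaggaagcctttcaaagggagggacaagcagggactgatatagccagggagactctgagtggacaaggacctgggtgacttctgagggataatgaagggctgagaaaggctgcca

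Of the members, 104 have 1 annotated transcript and 75 have 2 or more. Among these 75, the same transcript led in every stage with at least 100 counts in 59, and the leading one differed between stages in 16. Snhg6 was such a case: Snhg6-001 held 76.1% and 76.6% of its counts at P14, against 27.9% and 36.8% at E11, and Snhg6-004 held 7.3% and 6.3% at P14, against 41.5% and 36.3% at E11. The transcripts overlap, and their shares are estimates. In the authors' deposited table of differential expression, 153 of the 179 members are listed, in 29 of its 36 clusters.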

How the data were processed

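RNA sequencing measured polyadenylated RNA in 24 libraries of mouse retina. The authors deposited estimated counts per gene and per transcript; kallisto 0.42.4, edgeR 3.13.9 and GRCm38.p5 are named in the submitters' processing notes, without roles. The authors also deposited a table of log2 changes against E11 with p-values, of which only membership and cluster, a score with no unit, were used here, per the file headers. The deposited normalized CPM were not used. No source used here states whether counting used the strand.

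Levels are CPM of the library total, as the rule for members sets them, and a mean is over 2 libraries. Counts were rounded and fitted with edgeR 4.0.16 (R 4.3.3, limma 3.58.1; filterByExpr with a minimum count of 10, TMM, quasi-likelihood F test, 1 coefficient per stage, 12 residual degrees of freedom), with Benjamini-Hochberg adjustment over 21858 genes. DESeq2 1.42.0 was an alternative. Log2 changes carry the TMM scaling, which CPM do not. The fit was tested on simulated data. Correlations used log2(CPM + 0.5) of stage means. Counting intervals and floors cover counting error only.

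Named members were taken from the 4 most abundant per peak stage, the 6 largest called rises and falls per pair of stages with libraries apart, all with names that are no placeholder, those next to the threshold, and the 6 most abundant with a protein-coding gene within 10 kb; a few singled out after their values were seen are the microRNA hosts, the single marker genes, Gm26847, Gm42418 and the pairs so marked. The members, lists and rules were chosen with earlier results of these data known. Summed levels of some marker lists are not reported here.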

Additional observations from a re-analysis of the deposited data

How the results depend on the processing

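The number of members depends on the level set: it was 308 at 5 CPM and 109 at 20 CPM, against 179 at 10 CPM. At 5 CPM, 36 peaked at E11 or E12, 29 at E14 or E16, 65 from P4 to P10 and 127 at P21 or P28; at 20 CPM, 11 peaked at E11 or E12, 16 at P0 or P2, 16 from P4 to P10 and 44 at P21 or P28. Without a fold threshold, 86 members were higher and 17 lower at E16 than at E11, 73 and 46 at P6 than at E16, and 90 and 35 at P28 than at P6, beside 4948 and 5066, 4985 and 5309, and 5285 and 5371 of the 21858 genes tested. Leaving out 1 library at a time gave 35 to 58 and 8 to 10 calls for E16 over E11, 40 to 46 and 21 to 28 for P6 over E16, 41 to 45 and 20 to 22 for P28 over P6, and 162 to 168 across all stages. The calls across other scalings, filters and DESeq2 kept within 1.5 times, and no called member changed sign under another scaling; of the members not called, 1 and 3 did with RLE factors (E16 over E11, P6 over E16) and 6, 3 and 2 by library totals alone. Scaling by library totals alone moved the median of all genes for E16 over E11 to 0.14. Replicate numbers do not pair the samples (r of −0.06 to 0.13 over 66 pairs of stages, 2 of them over 0.1); with the replicate number as a block, 46 and 8, 44 and 26, and 45 and 23 members were called in the 3 pairs of stages, and 165 across all. Depth limits members near 10 CPM least at their peak and most at stages with under 3 counts.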
